A study of Mus musculus with 9 samples.

Results

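The 9 genes examined here belong to the synthesis of coenzyme A (CoA), with Pank4 as a relative of the kinases, and to the pantetheinases that return its building block: Pank1, Pank2, Pank3, Pank4, Ppcs, Ppcdc, Coasy, Vnn1 and Vnn3. They were chosen by symbol, with the condition that the deposited value was above 0 in at least 1 liver. All 9 met this condition, out of 23183 symbols in the tables, 16889 of which were above 0 in at least 1 liver. Each of the 9 was above 0 in all 9 livers.

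Polyadenylated RNA was sequenced from the livers of 9 male C57BL/6J mice, 1 library per mouse, with 3 mice in each group. ND mice (mouse numbers 6, 7 and 9) ate a normal diet with 14% fat for 10 weeks, and HFD mice (1, 2 and 3) ate a diet with 60% fat for the same time. PRF 50 mice (3, 9 and 10) ate the 60% fat diet for 10 weeks and were given PRF, a fraction rich in polymethoxyflavones from the leaves of Citrus sunki, by mouth at 50 mg/kg of body weight per day during the last 5 weeks. The labels give an age of postnatal day 100 for all 9 mice. They name the third group only as a PRF group, and its dose comes from the sample titles and the study's methods. The study compared the groups to see how PRF acts on obesity induced by diet. PRF was given in carboxymethyl cellulose, and whether the ND and HFD mice received this vehicle is not given in the sources used here. The mouse numbers do not link a mouse of 1 group to a mouse of another.

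The liver label was checked against 9 hepatocyte markers. Of these, 8 were above 0 in every liver, with a summed level between 21036 and 31356 FPKM (fragments scaled to transcript length and library depth), and apolipoprotein Apoa1 was the most abundant. The albumin gene Alb is listed at 0 in all 9 livers, so a 0 in these tables was not read as absence of the transcript. Values are given on the deposited log2 scale, log2(FPKM + 1), or as FPKM after reversing it. Low values lie on steps of whole fragments, from which library depth was estimated, lowest in PRF 50 mouse 10 and highest in HFD mouse 3 (0.961 and 1.58 relative to HFD mouse 1). By the same estimate the Vnn1 values, with 1 annotated coding transcript, rest on 480 to 3545 fragments per liver. For Pank1 the range runs from 929 (lowest liver, shortest annotated coding transcript) to 8467 (highest liver, longest transcript). The Pank1 range therefore also spans transcript length. Ppcdc has the thinnest basis, between 6 fragments (lowest liver, shortest annotated coding transcript) and 130 (highest liver, longest transcript). In bulk liver, fewer cells of a type and less RNA per cell cannot be told apart.

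CoA carries acyl groups in fatty-acid oxidation, fatty-acid synthesis and ketone body formation, and the liver holds much of it. Cells build it from pantothenate (vitamin B5): pantothenate kinases catalyse the first and rate-limiting step and are inhibited by CoA or its esters, PPCS then joins cysteine to the product, PPCDC removes a carboxyl group, and CoA synthase (Coasy) adds the nucleotide part. On a route back outside the cell, CoA is degraded to pantetheine, and the vanins, which are pantetheinases, split pantetheine into pantothenate and cysteamine. CoA is also broken down inside the cell, by hydrolases such as the peroxisomal Nudt7 described below.

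Of the 4 Pank genes, 3 share a feature that the choice of genes did not use: each carries a microRNA hairpin in an intron on its own strand. The hairpins lie at chr19:34820687-34820773 (minus strand) in Pank1, chr2:131288052-131288137 (plus strand) in Pank2 and chr11:35782396-35782481 (plus strand) in Pank3 (RefSeq, GRCm38.p6). The mature 3p sequences are shown because they are what sets these 3 hosts apart from Pank4; capitals mark the seed, bases 2 to 8, which is the same in both. miR-103-3p is made from the hairpins in Pank2 and Pank3.
miR-107-3p (Pank1): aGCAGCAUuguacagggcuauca
miR-103-3p (Pank2 and Pank3): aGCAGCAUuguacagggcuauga
The microRNAs themselves were not analysed here, and the host levels below say nothing on their abundance.

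The most abundant gene differed between the groups. In the ND group the order by mean FPKM was Coasy (60.5 ± 3.56; SD, n = 3), Pank1 (46.8 ± 3.41), Vnn3 (34.2 ± 5.27), Vnn1 (28.7 ± 0.479), Ppcs (15.8 ± 2.36), Pank3 (14.7 ± 3.97), Pank2 (4.96 ± 0.663), Pank4 (3.13 ± 0.232) and Ppcdc (2.23 ± 0.406). Only Ppcs and Pank3 overlapped among neighbours in that order. In the HFD group Vnn1 stood first (78.4 ± 14.55), followed by Pank1 (67.1 ± 4.92), Coasy (61.9 ± 1.50) and Vnn3 (53.2 ± 9.01), and each of these overlapped with the next except Vnn3 with Pank3 (18.8 ± 0.787). In the PRF 50 group Coasy was first again (52.8 ± 4.44), overlapping with Vnn3 (44.2 ± 25.2), which overlapped with Pank1 (43.1 ± 8.94), while the mean of Vnn1 (24.2 ± 5.24) was below these 3. Pank2, Pank4 and Ppcdc held the lowest 3 places in each group. Pank4 and Ppcdc overlapped in the HFD group.

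**Figure D1:**
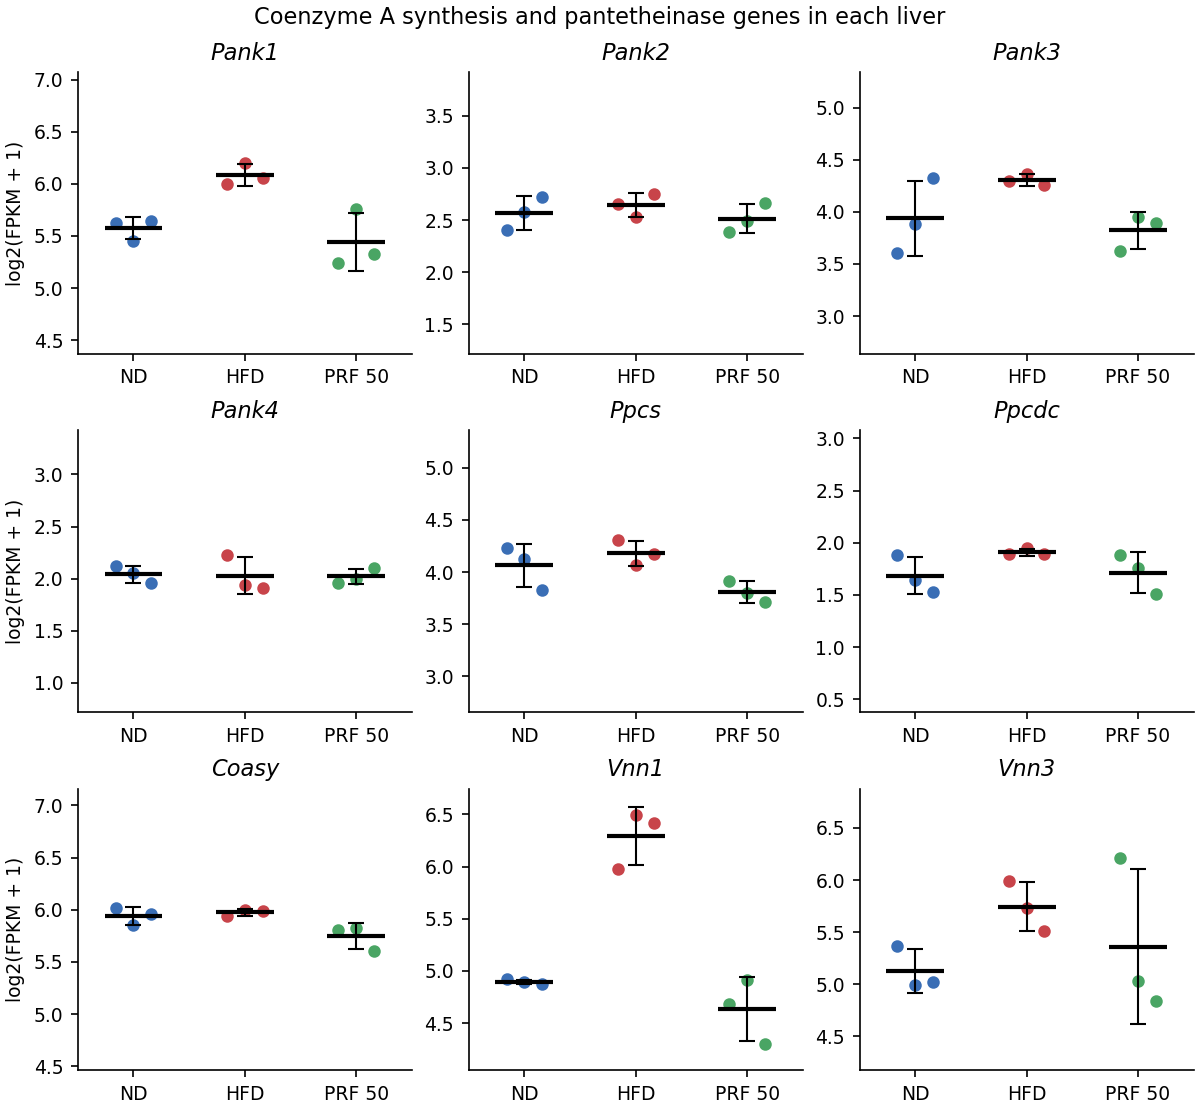
Level of each gene in each liver on the log2(FPKM + 1) scale, by group (ND, HFD, PRF 50); points are mice, long bars are group means and whiskers are SD (n = 3), and every panel spans the same number of log2 units. The HFD mice reached 5.97 to 6.50 for Vnn1, and the other 6 mice 4.30 to 4.92.

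Pank1, the main pantothenate kinase gene of the liver by level, lies at chr19:34806940-34879455 on the minus strand (GRCm38). Its log2 values were 5.63, 5.45 and 5.64 in ND mice 6, 7 and 9, 6.00, 6.20 and 6.06 in HFD mice 1, 2 and 3, and 5.24, 5.76 and 5.33 in PRF 50 mice 3, 9 and 10. The 3 HFD mice were the highest of the 9, and the ND and PRF 50 mice overlapped. Mean FPKM was 1.43 times as high in the HFD as in the ND group, a log2 fold change of 0.51 (standard error 0.11, limma adjusted p = 0.0816). It was -0.64 in PRF 50 vs. HFD (standard error 0.15, limma adjusted p = 0.0635) and -0.13 in PRF 50 vs. ND (95% confidence interval -0.49 to 0.23). None of the 3 passed an adjusted p of 0.05. The PRF 50 vs. ND value was -0.030 without PRF 50 mouse 3, -0.29 without PRF 50 mouse 9 and -0.037 after quantile normalization. PRF 50 mouse 9 had the highest Pank1 value of its group, and without it PRF 50 vs. HFD gave -0.80 with an adjusted p of 0.0288 in limma. Over all 6 such omissions the adjusted p ranged from 0.0288 to 0.187. With all 9 mice in 1 limma fit it was 0.0368, with no minimum level 0.108, and after quantile normalization 0.134 (log2 fold change -0.54).

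Pank3, a cytosolic kinase, lies at chr11:35769484-35791285 on the plus strand. Its log2 values were 3.61, 3.89 and 4.32 in the ND mice, 4.30, 4.37 and 4.25 in the HFD mice, and 3.62, 3.95 and 3.89 in the PRF 50 mice. The HFD mice lay close together and above all PRF 50 mice, while ND mouse 9 reached the HFD level and the other ND mice did not. The difference was -0.48 on the log2 scale in PRF 50 vs. HFD (standard error 0.11, limma adjusted p = 0.0559) and 0.37 in HFD vs. ND (standard error 0.17, adjusted p = 0.376). The latter was 0.20 without ND mouse 6 and 0.56 without ND mouse 9. With the minimum mean raised to 10 FPKM, the adjusted p of PRF 50 vs. HFD was 0.0418, with 4139 in place of 10084 genes tested. No other alternative passed, with adjusted p from 0.0558 (scaling by median of ratios) to 0.173 (without HFD mouse 2), 0.0954 after quantile normalization and 0.151 with all 9 mice in 1 fit.

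Pank2, whose product is found in mitochondria in humans, and Pank4, whose product lacks kinase activity and carries a phosphatase domain, were low and flat. Pank2 (chr2:131262495-131299188, plus strand) lay between 2.39 and 2.75 and Pank4 (chr4:154964123-154980938, plus strand) between 1.91 and 2.23 on the log2 scale over all 9 livers. The groups overlapped in all 3 comparisons for both genes, and every log2 fold change was between -0.13 and 0.073. The 95% confidence intervals of Pank4 ran from -0.30 to 0.27 in HFD vs. ND and from -0.28 to 0.26 in PRF 50 vs. HFD. The 3′ end of Pank2 overlaps Rnf24 on the opposite strand and Gm14233 on the same strand. Strand use in counting is not given in the sources used here, so the Pank2 values are uncertain.

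**Figure D2:**
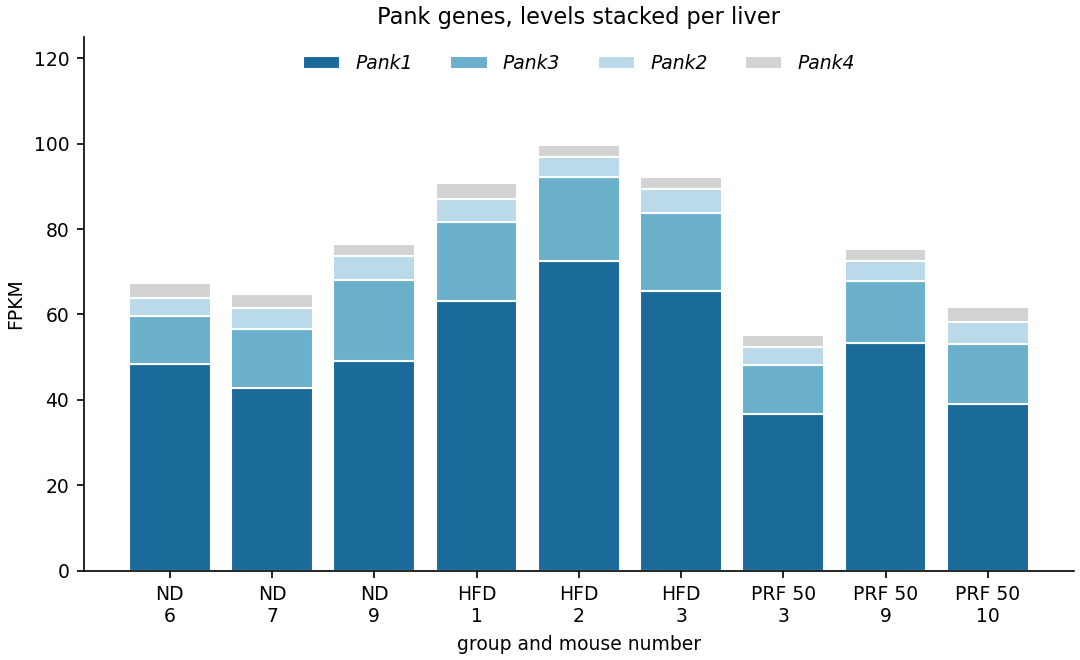
FPKM of Pank1, Pank3, Pank2 and Pank4 stacked for each liver, with group and mouse number on the horizontal axis. The sum ranged from 90.7 to 99.8 among HFD mice and from 55.2 to 76.5 among the other 6, and Pank1 made up most of it in each liver.

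The 4 Pank genes were added per liver, since FPKM is given per length. Their sum was 67.3, 64.8 and 76.5 FPKM in the ND mice, 90.7, 99.8 and 92.1 in the HFD mice, and 55.2, 75.4 and 61.7 in the PRF 50 mice. The sum was highest in the 3 HFD mice. Pank1 supplied 72.0%, 66.1% and 64.0% of it in the ND mice, 69.5%, 72.7% and 71.2% in the HFD mice, and 66.6%, 70.7% and 63.5% in the PRF 50 mice, so its share overlapped between all groups. The mean Pank1 share differed by 3.74 percentage points in HFD vs. ND (two-sided exact permutation p = 0.3, adjusted over 6 comparisons 0.36) and by -4.19 in PRF 50 vs. HFD (exact permutation p = 0.2, adjusted 0.36). With 3 mice against 3 the smallest possible p is 0.1. Annotated coding transcripts of the 4 genes shared no stretch of 50 bases in any pair, and at 25 bases Pank1 and Pank2 shared 4 stretches and the other pairs 0.

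Promoter windows, from 250 bases before to 50 after an annotated start, were matched for 7 of the 9 genes (RefSeq, GRCm38.p6), and no window of Vnn1 or Coasy was matched. Those of Pank1 and Pank3 are shown because these 2 kinase genes were both separated from the HFD level in the PRF 50 mice. Pank1 has 2 windows, chr19:34879406-34879705 and chr19:34877868-34878167 (both minus strand), and that of Pank3 is chr11:35769245-35769544 (plus strand). Capitals mark TATAAA, the TATA box core, or AGGTCA, the repeat unit of many nuclear receptor sites, on either strand.
Pank1, upstream start: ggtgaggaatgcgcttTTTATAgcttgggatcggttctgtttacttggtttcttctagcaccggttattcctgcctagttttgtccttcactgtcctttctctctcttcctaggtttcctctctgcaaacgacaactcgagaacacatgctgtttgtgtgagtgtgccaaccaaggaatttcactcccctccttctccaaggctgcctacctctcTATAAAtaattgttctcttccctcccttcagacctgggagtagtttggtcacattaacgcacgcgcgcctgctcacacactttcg
Pank1, downstream start: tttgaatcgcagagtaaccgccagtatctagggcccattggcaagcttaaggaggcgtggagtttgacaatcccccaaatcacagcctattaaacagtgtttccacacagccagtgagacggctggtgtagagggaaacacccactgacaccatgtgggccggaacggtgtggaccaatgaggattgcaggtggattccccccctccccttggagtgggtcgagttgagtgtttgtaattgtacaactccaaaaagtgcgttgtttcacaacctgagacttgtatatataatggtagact
Pank3: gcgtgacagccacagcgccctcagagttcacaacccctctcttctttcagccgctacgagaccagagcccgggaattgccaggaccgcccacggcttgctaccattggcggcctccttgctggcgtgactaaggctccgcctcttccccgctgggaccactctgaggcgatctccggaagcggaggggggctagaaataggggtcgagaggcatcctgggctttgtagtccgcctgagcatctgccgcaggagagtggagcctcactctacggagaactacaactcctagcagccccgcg
The upstream Pank1 window holds TATAAA at -35 and, on the other strand, at -234 from the start, and it was the only window of the 7 genes with these letters, which occur in 13.6% of 32851 mouse windows. GC content was 48.0% and 49.7% in the Pank1 windows and 63.0% in that of Pank3, against a median of 52.7%. AGGTCA occurs in 16.3% of all windows and was found in those of Ppcs (-224) and Ppcdc (27) among the 7 genes, and none of their windows held AGGNCA repeated with 1 letter between, which 0.381% of all windows hold. A match of letters is a description of the window only. The deposited values give 1 level per gene, so the Pank1 starts could not be told apart.

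Ppcs, the ligase that adds cysteine (chr4:119418530-119422420, minus strand), had log2 values of 4.23, 4.13 and 3.83 in the ND mice, 4.30, 4.06 and 4.18 in the HFD mice, and 3.92, 3.80 and 3.71 in the PRF 50 mice. The PRF 50 mice were all below the HFD mice, and ND mouse 9 fell among them. PRF 50 vs. HFD gave a log2 fold change of -0.37 (standard error 0.098, limma adjusted p = 0.091). In HFD vs. ND it was 0.12 (adjusted p = 0.719), but 0.00080 without ND mouse 9, 0.056 without HFD mouse 1 and 0.20 without ND mouse 6.

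Ppcdc, the decarboxylase (chr9:57385095-57440124, minus strand), had 1.88, 1.65 and 1.53 in the ND mice, 1.89, 1.95 and 1.90 in the HFD mice, and 1.88, 1.76 and 1.50 in the PRF 50 mice. The HFD mice were above all others, although ND mouse 6 and PRF 50 mouse 3 were almost level with HFD mouse 1. The log2 fold changes were 0.23 in HFD vs. ND (adjusted p = 0.443 in limma) and -0.20 in PRF 50 vs. HFD (adjusted p = 0.414). With 1 mouse left out they ranged from 0.15 (without ND mouse 9) to 0.32 (without ND mouse 6) and from -0.28 (without PRF 50 mouse 3) to -0.091 (without PRF 50 mouse 10). At this low level log2(FPKM + 1) understates a fold change.

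Coasy, the bifunctional enzyme that completes the molecule (chr11:101082565-101086619, plus strand), had 6.02, 5.85 and 5.95 in the ND mice, 5.94, 6.00 and 5.99 in the HFD mice, and 5.81, 5.83 and 5.61 in the PRF 50 mice. The ND and HFD mice overlapped, and the PRF 50 mice lay below both. The differences were small, -0.23 in PRF 50 vs. HFD (standard error 0.091, limma adjusted p = 0.216) and -0.19 in PRF 50 vs. ND (standard error 0.11, adjusted p = 0.507). After quantile normalization they were -0.11 and -0.082 (adjusted p = 0.578 and 0.785), and without PRF 50 mouse 10 they were -0.16 and -0.12. HFD vs. ND gave 0.035, with a 95% confidence interval from -0.19 to 0.26.

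Vnn1 and Vnn3 are neighbours on the plus strand of chromosome 10, at chr10:23894688-23905343 and chr10:23851462-23869843. They lie 24844 bases apart with no annotated gene between them. Their annotated transcripts shared no stretch of 25 bases. Vnn1, the pantetheinase anchored on the hepatocyte surface, is a known target of the fatty-acid receptor PPARA.

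Vnn1 rose in HFD vs. ND and fell in PRF 50 vs. HFD, and its PRF 50 and ND levels overlapped. Its log2 values were 4.92, 4.89 and 4.87 in ND mice 6, 7 and 9, 5.97, 6.50 and 6.41 in HFD mice 1, 2 and 3, and 4.68, 4.91 and 4.30 in PRF 50 mice 3, 9 and 10. In FPKM these are 29.2, 28.7 and 28.3, then 61.9, 89.2 and 84.2, then 24.7, 29.1 and 18.7. The HFD mice lay above all others with a wide gap, the ND mice were close to each other, and the PRF 50 mice overlapped with them, PRF 50 mouse 10 being the lowest liver of the 9. Mean FPKM was 2.73 times as high in the HFD as in the ND group (log2 fold change 1.40, standard error 0.15, 95% confidence interval 1.06 to 1.74, limma adjusted p = 0.00731). Against the PRF 50 group, the HFD mean was 3.24 times as high (PRF 50 vs. HFD log2 fold change -1.66, standard error 0.19, 95% confidence interval -2.11 to -1.21, limma adjusted p = 0.0147). PRF 50 vs. ND gave -0.26 (95% confidence interval -0.62 to 0.10, adjusted p = 0.526), which does not show that the levels are equal. It was -0.095 without PRF 50 mouse 10 and -0.40 without PRF 50 mouse 9.

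The HFD vs. ND call of Vnn1 held in each of the 13 alternative fits, with adjusted p between 0.00208 and 0.0394 in limma. The PRF 50 vs. HFD difference kept its size when any 1 mouse was left out (-1.82 to -1.50), but its adjusted p was 0.0563 without HFD mouse 2, 0.0539 without HFD mouse 3 and 0.052 without PRF 50 mouse 3, in a range from 0.0108 to 0.0563. These 3 limma fits called 31, 15 and 40 genes in all, against 362 with all 6 mice. Without HFD mouse 1 and without PRF 50 mouse 10 the totals were 215 and 168.

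**Figure D3:**
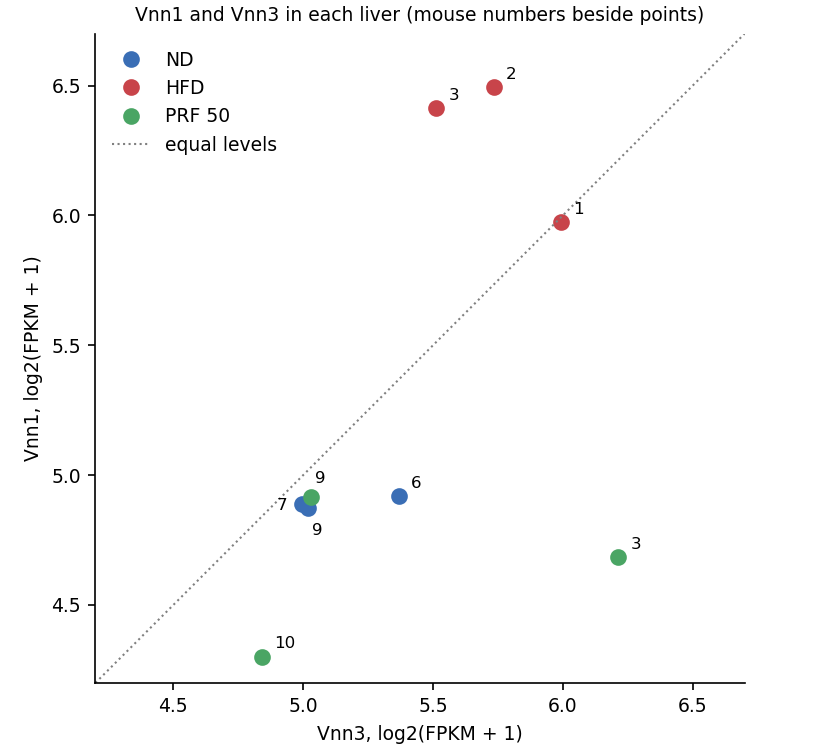
Vnn1 (vertical axis) against Vnn3 (horizontal axis) in each liver, both as log2(FPKM + 1), with the mouse number beside each point and a dotted line where both levels are equal. HFD mice 2 and 3 lie above the line, HFD mouse 1 lies on it (difference -0.017), and PRF 50 mouse 3 lies furthest below it.

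Vnn3, the second pantetheinase gene, did not follow Vnn1 in every liver. Its log2 values were 5.37, 4.995 and 5.02 in the ND mice, 5.99, 5.73 and 5.51 in the HFD mice, and 6.21, 5.03 and 4.84 in the PRF 50 mice. The HFD mice were all above the ND mice, and the PRF 50 mice split: mouse 3 had the highest Vnn3 of all 9 livers, and mice 9 and 10 lay at or below the ND level. HFD vs. ND gave a log2 fold change of 0.62 (standard error 0.16, limma adjusted p = 0.128). PRF 50 vs. HFD gave -0.38 (standard error 0.34, adjusted p = 0.586), and without PRF 50 mouse 3 it was -0.81 (adjusted p = 0.0833), and without PRF 50 mouse 10 -0.12. PRF 50 vs. ND gave 0.23, and -0.19 without PRF 50 mouse 3.

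The difference between the neighbours, Vnn1 minus Vnn3 on the log2 scale, was -0.45, -0.10 and -0.15 in the ND mice, -0.017, 0.76 and 0.90 in the HFD mice, and -1.53, -0.12 and -0.54 in the PRF 50 mice. All 3 HFD mice were above all others. The group means were -0.23, 0.55 and -0.73, so HFD vs. ND differed by 0.78 and PRF 50 vs. HFD by -1.28 log2 units. The two-sided exact permutation p was 0.1 for both, the smallest that 3 against 3 mice can give (0.3 adjusted over 6 comparisons), so this test could not have reached 0.05 with any values. For PRF 50 vs. ND the exact permutation p was 0.3.

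HFD vs. ND asks what the high-fat diet did. Vnn1 rose, and 8 of the 9 genes had a higher mean in the HFD group, Pank4 being the exception. With 1 mouse left out, Pank4 turned positive in 3 of 6 fits, and Pank2 (without ND mouse 6) and Coasy (without ND mouse 7) turned negative in 1 each. The call, an adjusted p under 0.05 in limma, was reached by 1 of the 9 genes, against 1.33% of the 9978 genes tested, and an unadjusted p under 0.05 by 3 (Vnn1, Pank1 and Vnn3), against 15.1% of all genes. The thresholds of the study, p under 0.05 and a change of more than 2-fold, were applied here to unadjusted limma p-values, while the study does not say whether its p was adjusted. They were met by 1 of 9, Vnn1, against 1.34% of all genes. All 3 HFD mice were above all 3 ND mice in Pank1, Ppcdc, Vnn1 and Vnn3, 4 of 9 genes without overlap, where 20.7% of all genes had none in either direction. The median log2 fold change was 0.23 over the 9 genes and -0.0091 over all genes tested. The 133 genes called in all became 41, 35, 63, 39 and 94 without HFD mice 2 and 3 and ND mice 6, 7 and 9. Without HFD mouse 1 they were 140. The share of 1.33% therefore depends on single mice, and each of these fits also had 1 mouse fewer.

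PRF 50 vs. HFD asks what PRF did in mice on the high-fat diet. Vnn1 fell, and all 9 genes had a lower mean in the PRF 50 group. For Pank4 the difference was -0.0054 and turned positive in 3 of the 6 fits that left out 1 mouse. The call was reached by 1 of 9 genes, against 3.59% of the 10084 tested, and an unadjusted p under 0.05 by 5 (Vnn1, Pank1, Pank3, Ppcs and Coasy), against 20.2% of all genes. The criteria of p and fold change were met by 1 of 9, against 2.1%. The PRF 50 mice were all below the HFD mice in 6 of 9 genes (Pank1, Pank3, Ppcs, Ppcdc, Coasy and Vnn1); over all genes 26.2% did not overlap, 1103 of them higher and 1538 lower in the PRF 50 group. The median log2 fold change was -0.37 over the 9 genes and -0.015 over all genes tested. This comparison shares its HFD mice with HFD vs. ND, so a high value in these 3 mice enters both with opposite sign.

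PRF 50 vs. ND compares treated mice on the high-fat diet with mice on the normal diet, and both share mice with the comparisons above. No gene of the 9 was called in limma, against 0.458% of 10051 genes, none had an unadjusted p under 0.05, against 12.5%, and none met the criteria of p and fold change, against 1.76%. Coasy was the only 1 of 9 without overlap, lower in the PRF 50 mice, where 19.9% of all genes had none. The median log2 fold change was -0.12, and -0.031 over all genes tested. The 46 genes called in all became 17 and 4 without ND mice 6 and 7, and 59 without ND mouse 9. They became 8 and 26 without PRF 50 mice 3 and 9, and 71 without PRF 50 mouse 10. The share of 0.458% thus depends on single mice too.

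**Figure D4:**
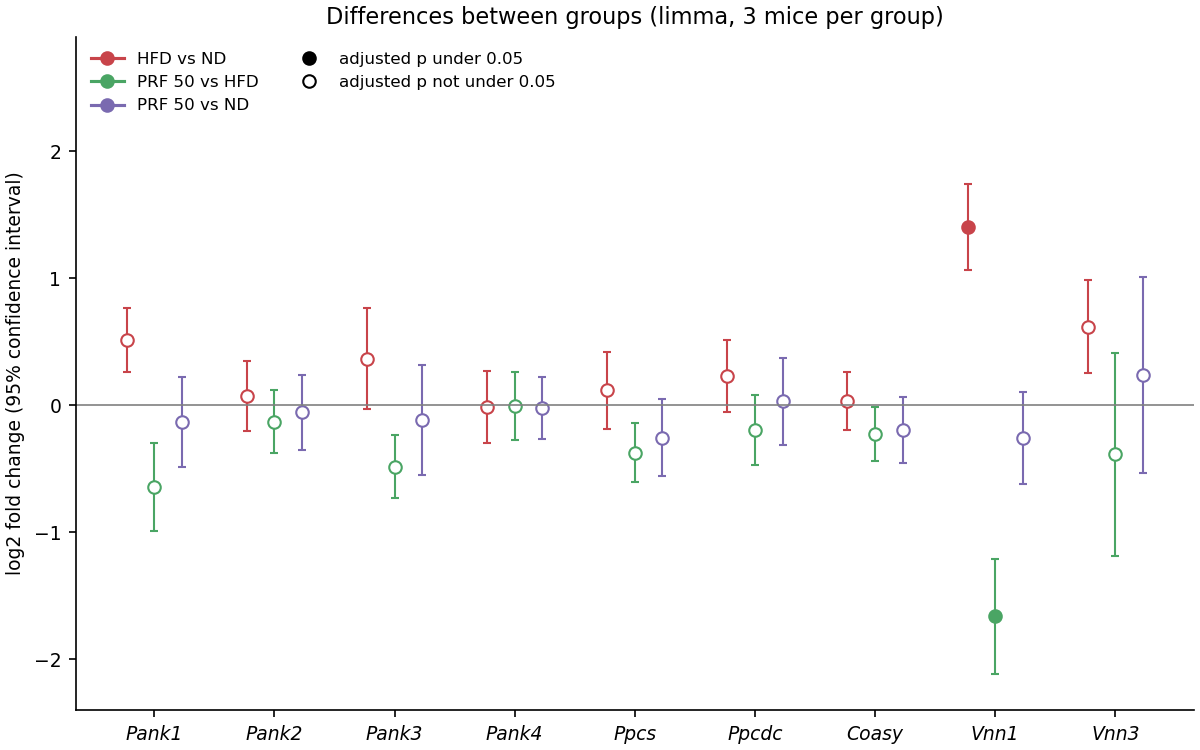
Log2 fold change of the 9 genes (vertical axis) in HFD vs. ND, PRF 50 vs. HFD and PRF 50 vs. ND, with 95% confidence intervals from limma; filled circles mark an adjusted p under 0.05. Only Vnn1 has filled circles, at 1.40 and -1.66.

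Other genes of CoA metabolism were drawn from lists of uptake and transport, breakdown, transfer of phosphopantetheine and its acceptors, conversion of cysteamine to taurine, and biotinidase (Btd), a relative of the vanins. Of 22 genes, 20 were tested, since Gadl1 is listed at 0 in all livers and Aldh1l2 was below the minimum. In HFD vs. ND 0 of 20 were called in limma, with an unadjusted p under 0.05 for 4 higher and 4 lower genes. For PRF 50 vs. HFD 1 was called, lower, with an unadjusted p under 0.05 for 3 higher and 6 lower. For PRF 50 vs. ND 0 were called, with 1 higher and 5 lower at an unadjusted p under 0.05. Over all genes tested, an unadjusted p under 0.05 was reached by 15.1%, 20.2% and 12.5% in these 3 comparisons, and the call by 1.33%, 3.59% and 0.458%. The median log2 fold changes of the 20 genes were -0.090, -0.16 and -0.14, respectively.

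Among the carriers, Slc25a16 had log2 values of 4.82, 4.96 and 4.84 in the ND mice, 5.05, 5.10 and 5.14 in the HFD mice, and 4.76, 4.76 and 4.75 in the PRF 50 mice. These mitochondrial carrier values did not overlap between any groups, HFD highest and PRF 50 lowest. PRF 50 vs. HFD gave -0.34 (standard error 0.073, limma adjusted p = 0.0549). HFD vs. ND gave 0.22 (adjusted p = 0.324) and PRF 50 vs. ND gave -0.12 (adjusted p = 0.643). Of all genes, 26.2%, 20.7% and 19.9% did not overlap in PRF 50 vs. HFD, HFD vs. ND and PRF 50 vs. ND. The mitochondrial CoA transporter Slc25a42 (0.32 in HFD vs. ND and -0.27 in PRF 50 vs. HFD, adjusted p = 0.315 and 0.336) and Slc5a6, which takes up pantothenate at the cell surface (0.24 and -0.24, adjusted p = 0.548 and 0.489), overlapped between groups. So did the peroxisomal carrier Slc25a17 (-0.24 and -0.052, adjusted p = 0.463 and 0.819).

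The breakdown genes had differences of both signs. Nudt7, the peroxisomal CoA hydrolase, was the most abundant, at 9.50, 9.12 and 9.32 in the ND mice, 8.64, 8.61 and 8.72 in the HFD mice, and 9.04, 8.97 and 9.47 in the PRF 50 mice. The HFD mice were the lowest 3 livers, the reverse of Pank1 and Vnn1. On the log2 scale the difference was -0.66 in HFD vs. ND (standard error 0.14, limma adjusted p = 0.083) and 0.50 in PRF 50 vs. HFD (standard error 0.15, adjusted p = 0.122). Nudt19, another peroxisomal CoA hydrolase, had -0.42 in PRF 50 vs. HFD (adjusted p = 0.125), and Nudt8 had -0.23 (adjusted p = 0.242). Enpp3 had 0.31 in that comparison (adjusted p = 0.168), and Enpp1, its relative among the ectonucleotide pyrophosphatases, had 0.42 in HFD vs. ND (adjusted p = 0.173) and 0.46 in PRF 50 vs. ND (adjusted p = 0.173).

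**Figure D5:**
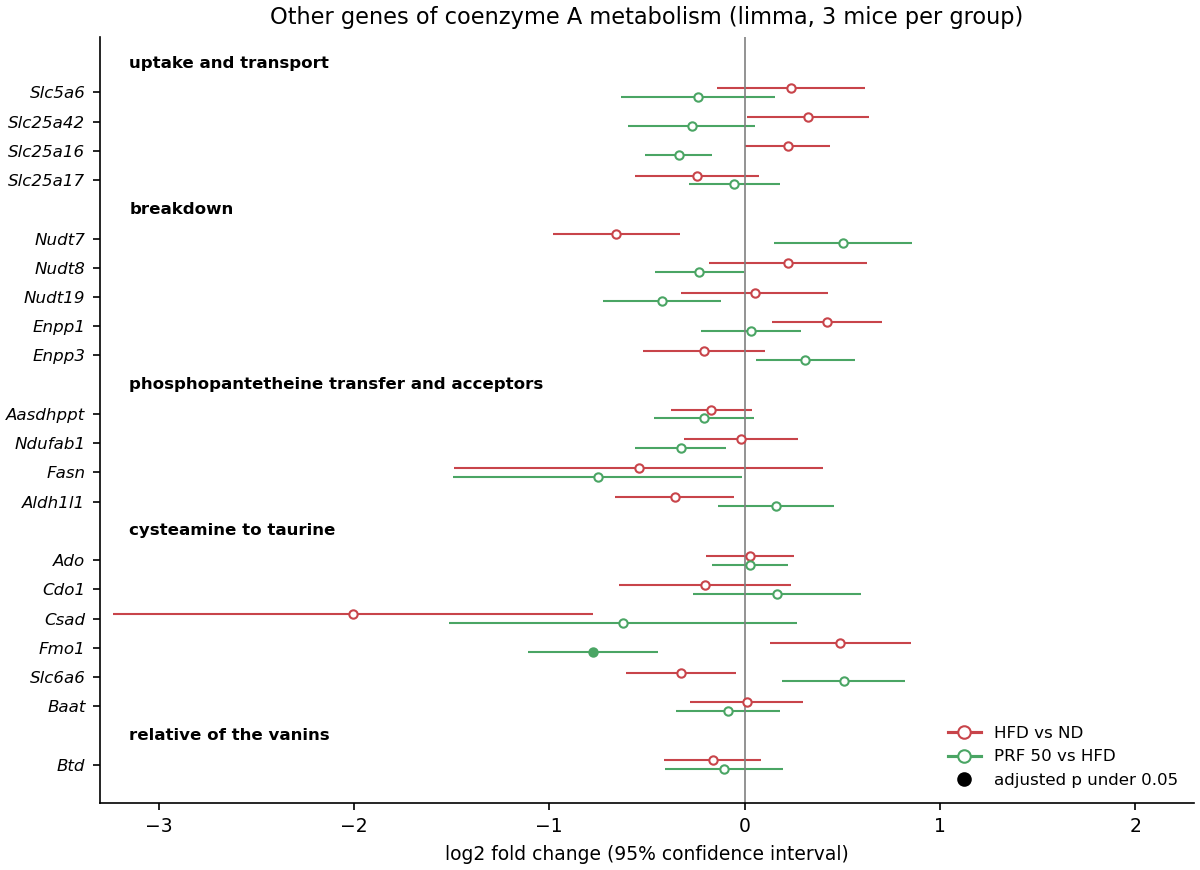
Log2 fold changes (horizontal axis) of 20 other genes of CoA metabolism, grouped by role, in HFD vs. ND and PRF 50 vs. HFD, with 95% confidence intervals from limma; the filled circle marks an adjusted p under 0.05. Fmo1 in PRF 50 vs. HFD, at -0.78, is the filled circle, and Csad in HFD vs. ND, at -2.01, has the widest interval.

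Cysteamine, which the vanins release, is oxidised by ADO to hypotaurine, which FMO1 can turn into taurine. Ado was flat, with log2 fold changes of 0.026 in HFD vs. ND and 0.028 in PRF 50 vs. HFD (limma adjusted p = 0.927 and 0.891). Fmo1 fell in PRF 50 vs. HFD, from 6.60, 6.50 and 6.73 in the HFD mice to 6.12, 5.75 and 5.63 in the PRF 50 mice, and the ND mice lay at 6.42, 6.09 and 5.85. The PRF 50 mice overlapped with the ND mice and lay below all HFD mice. The log2 fold change was -0.78 (standard error 0.14, limma adjusted p = 0.036). The call was lost in 7 of 13 alternatives, with the adjusted p between 0.027 and 0.121 over all of them. It held in 1 fit that left out a mouse, without PRF 50 mouse 3, and the adjusted p was 0.0742, 0.0947 and 0.121 without HFD mice 1, 2 and 3 and 0.0828 and 0.0748 without PRF 50 mice 9 and 10.

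Csad, which makes hypotaurine from cysteine sulfinate, had the largest differences of these lists and a wide spread. It was at 5.50, 7.42 and 6.42 in the ND mice, 5.37, 4.23 and 3.71 in the HFD mice, and 3.67, 4.05 and 3.73 in the PRF 50 mice. The ND mice were the highest 3 livers, and the HFD and PRF 50 mice overlapped. The log2 fold change was -2.01 in HFD vs. ND (standard error 0.53, limma adjusted p = 0.14) and -2.63 in PRF 50 vs. ND (standard error 0.42, adjusted p = 0.0544). Without ND mouse 6 the latter was -3.10 with an adjusted p of 0.0401, and it also passed with all 9 mice in 1 fit (0.0398), with a minimum of 10 FPKM (0.0313) and with a pseudocount of 0.1 (0.0492). The taurine transporter Slc6a6 had -0.33 in HFD vs. ND (adjusted p = 0.271) and 0.51 in PRF 50 vs. HFD (adjusted p = 0.0948). Cdo1 had -0.20 in HFD vs. ND (adjusted p = 0.659). Baat, which joins taurine to bile acids, had -0.073 in PRF 50 vs. ND (adjusted p = 0.797). Btd had -0.16 and -0.10 in HFD vs. ND and PRF 50 vs. HFD (adjusted p = 0.532 and 0.706).

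None of the 4 tested genes for phosphopantetheine transfer and its acceptors was called in limma in any comparison. In HFD vs. ND all 4 had a lower mean, 1 with an unadjusted p under 0.05, and in PRF 50 vs. ND all 4 were lower, 3 with an unadjusted p under 0.05 (15.1% and 12.5% of all genes). Fatty-acid synthase Fasn, an acceptor, had log2 fold changes of -0.54, -0.75 and -1.30 in HFD vs. ND, PRF 50 vs. HFD and PRF 50 vs. ND (adjusted p = 0.579, 0.239 and 0.171). The transferase Aasdhppt had -0.17, -0.21 and -0.38 (adjusted p = 0.437, 0.35 and 0.244). The mitochondrial acyl carrier protein Ndufab1 had -0.019, -0.33 and -0.35 (adjusted p = 0.961, 0.126 and 0.363), and Aldh1l1 had -0.36, 0.16 and -0.20 (adjusted p = 0.264, 0.539 and 0.639).

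Acyl-CoA synthetases, which use CoA to activate fatty acids, were compared as a list of 18 genes, 15 of them tested. The 3 called in PRF 50 vs. HFD were all lower: Acss3 (-2.35, limma adjusted p = 0.015), Acsl1 (-1.11, adjusted p = 0.0336) and Acsf3 (-0.51, adjusted p = 0.0414). The call was reached by 3.59% of all genes, and an unadjusted p under 0.05 by 7 of the 15, all lower, against 20.2%. Without HFD mouse 2, HFD mouse 3 or PRF 50 mouse 3, 0 were called in limma. The count was 1 without HFD mouse 1, after quantile normalization or with no minimum level (18 tested). In that order, these fits called 31, 15, 40, 215, 245 and 126 of all genes, against the 362 given above. These calls therefore depend on single mice and on the setting. The median of the 15 tested was -0.27, against -0.015 over all genes. Acss3 values were 1.89, 2.97 and 3.65 in the ND mice, 3.46, 4.28 and 4.52 in the HFD mice, and 1.49, 2.13 and 1.58 in the PRF 50 mice, so that the ND mice overlapped with both other groups. In HFD vs. ND 0 of 15 were called, with 5 higher and 1 lower at an unadjusted p under 0.05 (15.1% of all genes), and in PRF 50 vs. ND 0 of 15, with 4 lower (12.5% of all genes). The largest differences were those of Acss3 (1.25), Acss2 (-1.02), Acsl1 (0.65) and Acsm3 (0.65) in HFD vs. ND, with adjusted p from 0.0834 to 0.241, and of Acss3 (-1.10), Acss2 (-0.94), Acsl5 (-0.56) and Acsl1 (-0.46) in PRF 50 vs. ND, with adjusted p from 0.173 to 0.375.

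A list of 27 genes known to be induced by PPARA, which does not contain Vnn1, was set beside it. Genes of this kind had been seen to be lower in PRF 50 vs. HFD before the list was drawn up. Its direction and calls in that comparison were therefore largely set in advance. Acsl1 belongs both to this list and to the synthetases above. In HFD vs. ND 26 had a higher mean and 4 were called, all higher: Cyp4a14 (1.76), Pex11a (0.97), Aldh3a2 (0.90) and Cpt1a (0.60), with limma adjusted p between 0.0077 and 0.0483, where 1.33% of all genes were called and 4820 of 9978 had a higher mean. All 27 had a lower mean in PRF 50 vs. HFD and 16 were called, where 3.59% of all genes were called and 5344 of 10084 had a lower mean. Among the 16 were Cyp4a14 (-5.36), Cyp4a10 (-4.05), Acot1 (-2.49), Cd36 (-2.31), Pex11a (-1.77), Acaa1b (-1.76), Plin2 (-1.48), Aldh3a2 (-1.44), Retsat (-1.38), Acsl1 (-1.11), Ehhadh (-1.05), Mgll (-0.95), Acadm (-0.81), Slc25a20 (-0.76) and Hadha (-0.49), with adjusted p from 0.0116 to 0.0453. Pdk4 and Fgf21, named after their values were seen, averaged under 1 FPKM in the ND and PRF 50 groups and were tested only where the HFD mice took part, so their direction was fixed by the minimum. Without them 24 of 25 were higher and 4 called in HFD vs. ND (median 0.56), and 25 of 25 were lower and 16 called in PRF 50 vs. HFD (median -0.95). The median of all 27 was 0.60 in HFD vs. ND and -0.99 in PRF 50 vs. HFD. In PRF 50 vs. ND, where 25 were tested, 3 were called, all lower: Cd36 (-0.78, adjusted p = 0.0229), Ehhadh (-1.16, adjusted p = 0.0343) and Acaa1b (-1.32, adjusted p = 0.042), against 0.458% of all genes.

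The number of these calls depends on single mice and on the setting. In PRF 50 vs. HFD, HFD vs. ND and PRF 50 vs. ND, no minimum level gave 10, 1 and 0. The totals over all genes were then 126, 37 and 11. Quantile normalization gave 12, 3 and 1, with totals of 245, 151 and 35. In PRF 50 vs. HFD 2 were called without HFD mouse 2, 1 without HFD mouse 3, 5 without PRF 50 mouse 3 and 9 without PRF 50 mouse 10, while all 27 kept a lower mean in each of the 6 omissions. Over all genes, 31 of 10088 were called without HFD mouse 2 and 15 of 10092 without HFD mouse 3. The totals were 40 of 10056 without PRF 50 mouse 3 and 168 of 10060 without PRF 50 mouse 10. In HFD vs. ND 1 was called without HFD mouse 2, HFD mouse 3, ND mouse 7 or ND mouse 9, 2 without ND mouse 6 and 6 without HFD mouse 1. In that order, these fits called 41, 35, 39, 94, 63 and 140 of all genes, against 133 with all 6 mice. In PRF 50 vs. ND 0 were called in limma without ND mouse 6, ND mouse 7, PRF 50 mouse 3 or PRF 50 mouse 10, and 1 without ND mouse 9. In that order, these fits called 17, 4, 8, 71 and 59 of all genes. With all 6 mice, 13 of the 25 had an unadjusted p under 0.05, all lower, against 12.5% of all genes. These counts for the list and for the synthetases were added after the data were seen. Cyp4a14 was 6.73, 6.50 and 5.97 in the ND mice, 8.05, 8.17 and 8.28 in the HFD mice, and 1.62, 4.41 and 2.38 in the PRF 50 mice, below all ND mice, where Vnn1 overlapped with them. Whether the 2 genes differ in response was not tested. Because such genes had been seen to be lower in PRF 50 vs. HFD when this list was drawn up, its direction and calls are not independent evidence.

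The genes with the pattern most like Vnn1 over the 9 livers, by Pearson r on the log2 scale among 10048 genes averaging 1 FPKM or more, were Slc22a27 (0.991), Iqcc (0.985), Lace1 (0.978), Plin4 (0.975) and G0s2 (0.974). After group means were subtracted their r to Vnn1 was 0.927, 0.913, 0.700, 0.778 and 0.866. Slc22a27, an organic anion transporter gene, stood at 0.68, 0.83 and 0.88 in the ND mice, 2.48, 3.26 and 2.93 in the HFD mice, and 0.72, 0.92 and 0.34 in the PRF 50 mice. Its mean was 6.59 FPKM among HFD mice, 0.736 among ND mice and lower still among PRF 50 mice, and that of Plin4 was 2.98, 0.901 and 0.417 among HFD, ND and PRF 50 mice, so both reached the minimum through the HFD mice alone. These genes were selected by their r over the same livers, so a shared order of mice follows from the selection. These values describe 9 points that share the same groups and libraries.

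For Pank1 the leading genes were riboflavin kinase Rfk (0.975), carnitine acetyltransferase Crat (0.960), 1810055G02Rik (0.958), Arl4a (0.948) and Fam73b (0.947), with 0.947, 0.817, 0.869, 0.743 and 0.843 after group means were subtracted. Rfk values were 4.15, 4.06 and 4.19 in the ND mice, 4.45, 4.60 and 4.53 in the HFD mice, and 3.97, 4.28 and 4.12 in the PRF 50 mice. They too were selected by their r over these livers.

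Among the 9 genes, Pank1 had the highest r to Vnn1 over the 9 livers (0.926), followed by Pank3, Ppcdc, Coasy, Ppcs, Vnn3, Pank2 and Pank4 with 0.703, 0.687, 0.682, 0.615, 0.470, 0.288 and -0.205. After group means were subtracted the order was another, with 0.734 for Coasy, 0.623 for Pank1, 0.505 for Ppcdc, 0.034 for Vnn3, -0.012 for Pank3, -0.091 for Ppcs, -0.427 for Pank2 and -0.747 for Pank4. The r of Vnn1 to its neighbour Vnn3 depended on PRF 50 mouse 3. Without this liver it was 0.848, and with any other liver left out it stayed at or below 0.508. That of Vnn1 to Pank1 ranged from 0.891 to 0.953 over the same omissions, which were chosen after the values were seen. Whether these r values differ was not tested.

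Markers of other cell types differed between livers. The sum of 8 Kupffer cell and macrophage markers, all above 0, was 75.8, 139 and 180.0 FPKM in the ND mice, 92.1, 148 and 149.6 in the HFD mice, and 514, 309.7 and 329.6 in the PRF 50 mice, with Cd5l the most abundant. It was highest in the 3 PRF 50 mice, the group in which Vnn1, Pank1 and Pank3 were below the HFD level. Of 5 neutrophil markers 4 were in the tables, with S100a8 the most abundant, and their sum was 2.53, 8.92 and 6.25 in the ND mice, 3.998, 2.97 and 4.62 in the HFD mice, and 54.2, 17.5 and 3.15 in the PRF 50 mice. PRF 50 mouse 3, the liver with the highest Vnn3, also had the highest sums of both lists, and Mpo was at 0 in 7 of the 9 livers. Their part in these results was not tested.

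The 5 adipocyte markers summed to 0.654, 1.60 and 1.58 FPKM in the ND mice, 0.583, 6.56 and 13.5 in the HFD mice, and 0.211, 0.609 and 0 in the PRF 50 mice. Cfd was the most abundant. HFD mice 2 and 3, the higher 2 for Vnn1, were also the higher for this sum. Plin1 and Lep are listed at 0 in all 9 livers, as Alb is, and Adipoq was at most 0.277. What these values mean for Vnn1 was not tested. Of the kidney tubule markers, Kap is listed at 0 in every liver and the other 3 did not exceed 0.061, and of the pancreas markers Prss2 and Cpa1 are listed at 0, while Cela1 lay between 14.7 and 43.7 FPKM. Over the 9 livers the summed markers of stellate cells ranged from 60.1 to 129 FPKM, of sinusoidal endothelium from 14.9 to 65.3, of cholangiocytes from 25.6 to 41.5, of lymphocytes from 1.34 to 4.49 and of erythroid cells from 85.5 to 228. Among the stellate markers, the collagen genes Col1a1 (1.22, 2.32 and 1.62 FPKM) and Col3a1 (4.78, 6.84 and 5.03) were highest in the 3 HFD mice, as Vnn1 and Pank1 were, with at most 0.988 and 4.69 in the other 6, and both were named after their values were seen. The remaining stellate markers did not share this order. Dcn, Lrat and Reln were highest in PRF 50 mouse 10 (109, 6.68 and 5.62 FPKM), and Des in PRF 50 mouse 3 (1.72).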

How the data were processed

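Liver RNA of 9 mice was sequenced from directional libraries. Per the study's methods, the authors used TopHat to map trimmed reads (mm10 in the submitters' processing notes) and Cufflinks to estimate FPKM, with a geometric normalization. The deposited log2 values were read as log2(FPKM + 1); whole-fragment steps in low values, found after subtracting 1, rest on this reading. Groups of 3 were compared with limma 3.58.1 (R 4.3.3; lmFit, eBayes with trend) on the log2 values of the 6 mice compared, for genes averaging 1 FPKM or more, with Benjamini-Hochberg adjustment over all genes tested. Every p-value of a gene is from limma, whose step was tested on simulated data. Shares and differences between genes were compared by exact permutation in Python 3.11.15 (scipy 1.17.1). Gene positions are from GENCODE M21 (GRCm38).

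Named genes were the 9 members; from each list, genes called in a comparison and up to 4 with the largest fold change where none was called; and the 5 genes most like Vnn1 and Pank1. Ado was named in addition, as the enzyme that acts on cysteamine. Members and lists were chosen with earlier results of these data known. Alternatives were quantile normalization, a joint fit of all 9 mice, no trend, a pseudocount of 0.1, a 10 FPKM minimum or none, scaling by median of ratios, and omission of each mouse.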

Additional observations from a re-analysis of the deposited data

How the results depend on the processing

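Each comparison was fitted with limma under 13 alternatives. Of 180 log2 fold changes of the 9 genes under the 7 alternatives that kept all mice, 177 had the direction and the side of an adjusted p of 0.05 given above. Ppcdc in PRF 50 vs. ND turned to -0.019 after quantile normalization, and no other sign changed under these 7. Pank1 and Pank3 passed in PRF 50 vs. HFD, the former with all 9 mice in 1 fit and the latter at a 10 FPKM minimum, which made 2 called in each, of 9 and of 6 genes tested. Of the other CoA genes in PRF 50 vs. HFD, 2 were called at a 10 FPKM minimum, where fewer genes were tested, and 0 with no minimum or after quantile normalization. In PRF 50 vs. ND 1 was called with all 9 mice in 1 fit, at a 10 FPKM minimum or with a pseudocount of 0.1. The cause was not tested unless named.

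When 1 mouse was left out, 142 of 162 log2 fold changes kept direction and side. For PRF 50 vs. HFD the count of the 9 genes called ranged from 0 to 2, that of other CoA genes from 0 to 1, and Vnn1 from -1.82 to -1.50. For PRF 50 vs. ND the count of other CoA genes ranged from 0 to 1. Signs changed within these ranges in HFD vs. ND for Pank2 (-0.010 to 0.15), Pank4 (-0.12 to 0.042) and Coasy (-0.0100 to 0.073), and in PRF 50 vs. HFD for Pank4 (-0.063 to 0.096). In PRF 50 vs. ND they changed for Pank2 (-0.14 to 0.022), Pank3 (-0.28 to 0.073), Pank4 (-0.064 to 0.017), Ppcdc (-0.053 to 0.14) and Vnn3 (-0.19 to 0.50). No paired analysis was possible because the mouse numbers do not link mice of different groups.

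The pseudocount and the use of strand in counting were not stated by the authors, and protein levels, enzyme activity and CoA itself were not measured here.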
